A study of Mus musculus with 20 samples.

Results

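The genes described here are those whose response to cold was compared between the DPP4+ and the DPP4- adipocyte progenitor cells (APCs) of mouse fat. For each gene the cold effect in DPP4+ cells minus the cold effect in DPP4- cells, hereafter the difference of cold effects, was tested, and genes that responded in 1 population only were separated from genes that moved in opposite directions. The members are the 13057 of 27179 genes whose mean over the libraries reached 10 normalized counts, and all 20 of 20 libraries entered the comparison. Cells positive for PDGFRb, sorted by flow cytometry from the inguinal white fat of male C57BL/6 mice, were divided into DPP4+ and DPP4- APCs. The mice had been held at 22 °C or exposed to 6 °C for 24 h, and each of the 4 groups has 5 libraries. The labels name no transgene or deletion. The labels do not say whether a library came from 1 mouse or from pooled mice, nor whether a DPP4+ and a DPP4- library of the same number came from the same animal, so p-values measure the spread between these libraries. All 4 groups are sorted cells of 1 depot at 1 time point.

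In the inguinal depot, DPP4+ cells are known as interstitial progenitors that lie between the fat lobules, and DPP4- cells include preadipocytes nearer to fat formation. Cold drives sympathetic nerves to release noradrenaline in fat, and adrenergic receptors that couple to adenylyl cyclase raise cyclic AMP (cAMP), which acts on genes through CREB. Both populations sit in the same tissue, and the difference of their cold effects shows which genes changed unequally in the sorted cells. In bulk samples of sorted cells, a change within cells and a change in which cells were sorted cannot be told apart. The test runs on log2(value + 1), so a gene at a low level in 1 population has a compressed cold effect there, and that enters the difference.

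Libraries held between 8.49 and 18.8 M reads in genes (M, 1e+06). Dpp4 separated the sorts, at 7170.5 to 13270.1 normalized counts in DPP4+ libraries against 37.8 to 137 in DPP4- libraries, and Pdgfrb and Pdgfra were present in all 20. The cold effect on Dpp4 itself differed by 0.51 ± 0.40 (log2, ± SE), which did not pass the test (adjusted p = 0.357). DPP4- library 1 was the highest of its group in Dpp4 at both temperatures, at 105 and 137. DPP4- library 2 at 6 °C stood apart in the summed granulocyte and mast cell markers, at 2586 against 23.9 to 192 in the other 4 libraries of its group. DPP4+ library 5 at 6 °C held 9 and DPP4- library 1 at 22 °C held 8 of 40 single values that lay far from the rest of their group. Counts that these 4 libraries decide are given with and without them. Of the markers of other cell types, 2 of 8 tested pericyte genes, 1 of 10 endothelial, 1 of 5 macrophage, 0 of 8 granulocyte and mast cell, 1 of 5 Schwann cell and 2 of 3 mesothelial genes were called for the difference of cold effects, beside 33.2% of all tested genes, while lymphocyte, erythroid and epithelial genes were all too low to test. Pericyte markers summed to 629 to 827 in DPP4+ libraries and 5361 to 8859.7 in DPP4- libraries, endothelial markers to 2696 to 4333 and 947 to 1551.

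The cold effects differed between the populations for 4329 of 13057 genes (33.2%; limma, Benjamini-Hochberg adjusted p under 0.05). The difference was above 0 for 2192 genes (16.8%), meaning that the cold level relative to 22 °C was higher in DPP4+ than in DPP4- cells, and below 0 for 2137 (16.4%). At least 2-fold differences were found for 1141 genes (8.74%). The difference arose mainly from DPP4+ cells, in which 6023 genes (46.1%) passed the test for a cold effect, 3069 (23.5%) rising and 2954 (22.6%) falling, against 681 (5.22%) in DPP4- cells, 259 (1.98%) rising and 422 (3.23%) falling. The count in DPP4- cells was 1142 with the totals of all libraries set equal and 434 when libraries were weighted by their quality. The 5 libraries at 6 °C did not overlap the 5 at 22 °C for 5008 genes (38.4%) in DPP4+ cells, for 636 (4.87%) in DPP4- cells and for 265 (2.03%) in both; groups that do not overlap are called apart. The median size of the cold effect over all tested genes was 0.25 on the log2 scale in DPP4+ cells and 0.12 in DPP4- cells. The split of higher and lower differences depended on the scaling of the libraries. With the total counts of all libraries set equal, the median difference of all genes moved from 0.01 to -0.13, 4188 genes were called, and 26.9% of them were higher, against 50.6% with the deposited scaling.

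Each called gene fell into 1 of 5 classes by which cold effects passed the test. Of the 4329 genes, 3601 responded only in DPP4+ cells (27.6% of all tested genes; 1825 rose and 1776 fell), 172 only in DPP4- cells (1.32%; 69 rose and 103 fell), 131 moved in opposite directions (1.0%), 68 moved in the same direction by unequal amounts (0.521%), and in 357 neither cold effect passed alone (2.73%). A missed threshold does not show that a gene stood still, so the interval was also read. Each gene had 1 estimate of spread for all 4 groups, so a wide spread in 1 population also widened the interval of the other. For 2943 of the 3601 genes the 95% interval of the cold effect in DPP4- cells lay within 1.5-fold in either direction, and 142 of the 172 genes of DPP4- cells met the same condition in DPP4+ cells. The median effect of these genes in the responding population was itself under 1.5-fold, at 0.47 and 0.37 on the log2 scale. The bound therefore does not show that they stood still in the other population. A group of 111 genes of DPP4+ cells had a mean under 10 normalized counts in both DPP4- groups, so for these a call in DPP4- cells could hardly be made. The numbers in the smaller classes were not settled. Opposite genes numbered 84 without DPP4- library 3 at 6 °C and 255 without the 4 libraries that stood apart. These were DPP4- library 1 at both temperatures, and DPP4- library 2 and DPP4+ library 5 at 6 °C. Genes of DPP4- cells only numbered 85 with libraries weighted by their quality and 294 with totals set equal. The genes of the same direction numbered 114 without DPP4+ library 5 at 6 °C. In all 20 fits that left out 1 library each, 2688 of the 3601, 58 of the 172, 59 of the 131 and 26 of the 68 genes kept their class.

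**Figure D1:**
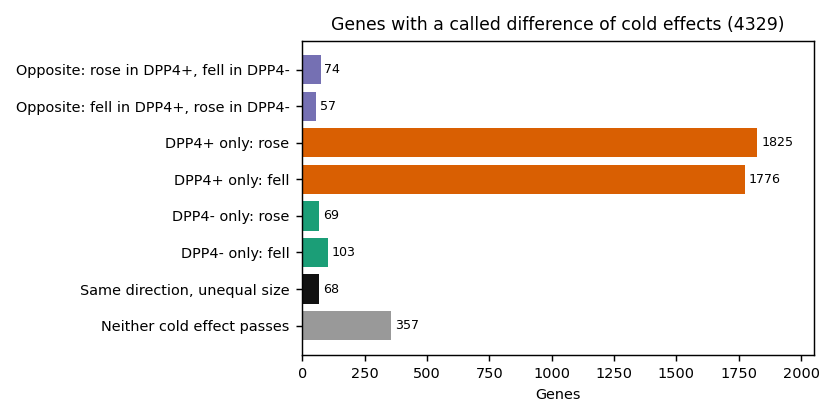
Number of genes (horizontal axis) in each class of called differences of cold effects, with the count printed at each bar. Genes that changed in DPP4+ cells only, 1825 rising and 1776 falling, make up most of the 4329, and 74 and 57 genes moved in opposite directions.

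Across the 13057 genes the cold effects of both populations were almost uncorrelated, with a Pearson correlation of 0.0199 and a Spearman correlation of 0.0441. Only 681 genes (5.22%) passed in DPP4- cells, so most effects there were not told from 0. The points are genes of the same 20 libraries and are not independent, so no p is given. Both cold effects passed with the same sign in the 68 same-direction genes and in 195 genes whose difference was not called. In the 131 opposite genes both passed with unlike signs. No gene passed in both populations with opposite signs without a called difference.

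**Figure D2:**
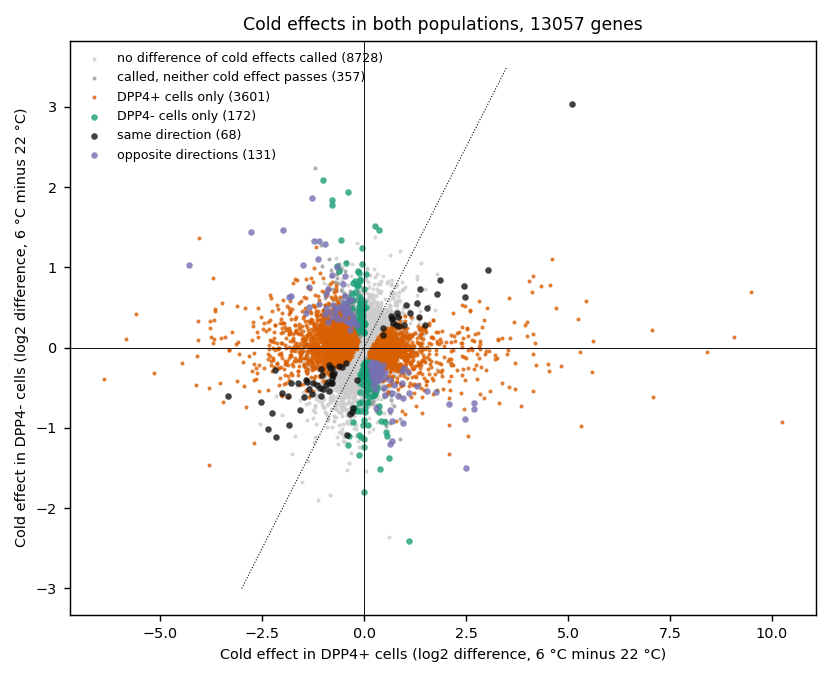
Cold effect of each tested gene in DPP4+ cells (horizontal axis, log2 difference of 6 °C and 22 °C) against DPP4- cells (vertical axis, same scale), coloured by class; the dotted line marks equal effects and the axes have different ranges. The 3601 genes of DPP4+ cells only spread along the horizontal axis, and the 131 opposite genes lie in the upper left and lower right fields.

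The stretch of 250 bases before the gene start is shown for 1 gene of each of 4 patterns so that the letters of the motifs searched can be read. Efnb2 rose in DPP4+ and fell in DPP4- cells, Cebpa did the reverse, Il11 rose in DPP4+ cells only and Phospho1 rose in DPP4- cells only. Of the 119 genes chosen by the naming rule, 85 had a stretch among those searched, which left out 1 chromosome. Sequences are those of RefSeq on GRCm38.p6, 5′ to 3′ towards the gene, with matches in capitals to the cAMP response element TGACGTCA or its core (TGACG or CGTCA), the AP-1 site (TGACTCA or TGAGTCA) and the E-box (CACGTG). The Efnb2 stretch is chr8:8661243-8661492, minus strand, that of Cebpa chr7:35119043-35119292, plus strand, that of Il11 chr7:4778142-4778391, minus strand and that of Phospho1 chr11:95824250-95824499, plus strand.
Efnb2: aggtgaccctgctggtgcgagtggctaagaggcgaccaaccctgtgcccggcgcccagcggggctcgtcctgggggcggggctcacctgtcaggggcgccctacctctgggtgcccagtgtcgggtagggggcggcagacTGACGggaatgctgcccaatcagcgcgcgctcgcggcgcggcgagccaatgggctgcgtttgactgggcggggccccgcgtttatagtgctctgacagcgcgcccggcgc
Cebpa: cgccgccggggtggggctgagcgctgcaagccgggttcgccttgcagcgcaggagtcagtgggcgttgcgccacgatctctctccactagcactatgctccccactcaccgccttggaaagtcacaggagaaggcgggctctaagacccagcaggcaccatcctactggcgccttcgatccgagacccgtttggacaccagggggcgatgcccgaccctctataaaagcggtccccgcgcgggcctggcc
Il11: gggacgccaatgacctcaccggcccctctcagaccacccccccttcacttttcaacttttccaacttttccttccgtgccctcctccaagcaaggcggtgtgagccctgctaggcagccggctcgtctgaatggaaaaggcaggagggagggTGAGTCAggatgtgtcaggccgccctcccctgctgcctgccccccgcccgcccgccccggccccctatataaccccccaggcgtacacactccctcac
Phospho1: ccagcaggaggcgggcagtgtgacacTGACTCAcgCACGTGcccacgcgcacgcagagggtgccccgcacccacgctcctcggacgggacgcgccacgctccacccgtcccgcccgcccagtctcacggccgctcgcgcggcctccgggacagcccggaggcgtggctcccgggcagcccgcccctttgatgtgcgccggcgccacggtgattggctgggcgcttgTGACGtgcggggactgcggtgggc
The Efnb2 stretch holds a core match that begins 110 bases before the start, the Cebpa stretch holds none of these motifs, this Il11 stretch holds an AP-1 site at 98, and the Phospho1 stretch holds an AP-1 site at 224, an E-box at 215 and a core at 24. A second Il11 stretch in the table, before another start of the gene, holds none of these motifs. Over the 10133 tested genes with a stretch searched, on both strands, 3.07% hold the full cAMP response element and 30.5% the core (which lies inside each full element). An AP-1 site is held by 4.02% and an E-box by 9.88%. Among all 32851 stretches searched, each counted singly, the shares are 1.55%, 17.8%, 4.46% and 6.02%. A gene was counted when any of its stretches held the motif, so shares of genes and of stretches are not like measures. Genes that rose only in DPP4+ cells hold the full element in 4.81% of 1456 and the core in 39.8%, and those that fell only there in 2.28% and 24.3% of 1403. Where the rise was at least 2-fold larger in DPP4+ cells, the shares are 2.70% and 28.2% of 259. Of the opposite genes, 3 of 96 hold the full element and 6 an AP-1 site. These shares are descriptions, with no test.

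Among the 74 genes that rose in DPP4+ and fell in DPP4- cells were genes of a secreted signal, a scaffold protein and a vesicle protein. Inhba, the subunit of activin A, a ligand of the TGF-beta family (gene ID 16323, chr13:16004256-16031609 on GRCm38), was at 331, 305, 235, 295 and 249 in DPP4+ libraries 1 to 5 at 22 °C and at 2074, 1625, 1657, 1813 and 1026 at 6 °C. In DPP4- cells Inhba was at 13.5, 21.0, 22.7, 30.7 and 16.7 at 22 °C and at 4.02, 19.1, 9.45, 1.88 and 6.58 at 6 °C. Every DPP4+ library at 6 °C was above every one at 22 °C, while the DPP4- groups overlapped because library 2 at 6 °C was at 19.1. Inhba rose by 2.50 on the log2 scale in DPP4+ cells and fell by 1.51 in DPP4- cells (adjusted p = 0.0212), and the effects differed by 4.01 (SE 0.51, adjusted p = 7.70e-06). Iqgap2, a scaffold protein that binds small GTPases (gene ID 544963, chr13:95627177-95892280), was at 193, 179, 223, 165 and 199 in DPP4+ libraries 1 to 5 at 22 °C and at 1513, 1241, 1295, 1322 and 894 at 6 °C. In DPP4- cells Iqgap2 was at 338, 219, 251, 238 and 239 at 22 °C and at 138, 154, 127, 171 and 159.7 at 6 °C. Neither pair of groups overlapped. Iqgap2 changed by 2.69 and -0.76, a difference of 3.45 (SE 0.18, adjusted p = 2.12e-12). Ptprn, a phosphatase-like protein of secretory vesicles (gene ID 19275, chr1:75247035-75264497), was at 616, 561, 459.5, 552 and 509.7 in DPP4+ libraries 1 to 5 at 22 °C and at 2918, 2345, 2331, 2577 and 1535 at 6 °C. In DPP4- cells Ptprn was at 20.3, 19.5, 17.6, 19.96 and 21.9 at 22 °C and at 9.38, 12.3, 10.8, 15.1 and 12.3 at 6 °C. The groups were apart in both populations although the level in DPP4- cells was low, and the effects of 2.09 and -0.70 differed by 2.79 (SE 0.19, adjusted p = 1.03e-10).

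Adamtsl2, a secreted glycoprotein of the microfibrils, went from 20.6 ± 6.47 to 119 ± 28.2 in DPP4+ cells and from 80.1 ± 22.0 to 41.3 ± 5.22 in DPP4- cells (mean ± SD, n = 5), and its effects of 2.48 and -0.89 differed by 3.37 (SE 0.30, adjusted p = 5.56e-09). Shisa6, a membrane protein known as an auxiliary subunit of glutamate receptors, went from 12.9 ± 2.26 to 88.2 ± 8.65 in DPP4+ cells and from 638 ± 86.8 to 399 ± 80.3 in DPP4- cells, so that cold raised it in the population where it was low and lowered it where it was high. The difference for Shisa6 was 3.37 (SE 0.18, adjusted p = 2.12e-12). Efnb2, the Eph receptor ligand ephrin-B2, had effects of nearly equal size, 0.95 and -0.94, with levels from 540.4 ± 40.5 to 1057 ± 190.1 in DPP4+ cells and from 611 ± 115 to 335 ± 134 in DPP4- cells. The DPP4- groups overlapped for Adamtsl2, Shisa6 and Efnb2. Bmpr1b, a BMP receptor, had effects of 0.68 and -1.16 but kept its class in only 6 of the 20 fits without 1 library, against 18 for Inhba and 20 for Efnb2, Adamtsl2, Iqgap2, Ptprn and Shisa6. The class of Ptprn did not hold under edgeR or DESeq2 on the whole reads, that of Inhba under edgeR, and that of Adamtsl2 when libraries were weighted by their quality.

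Of the 57 genes that fell in DPP4+ and rose in DPP4- cells, Wdr86 and Car3 were chosen by the size of their smaller effect and Cebpa as a member of a list. Wdr86 (gene ID 269633, chr5:24696900-24730698) was at 119, 105, 64.4, 90.2 and 85.8 in DPP4+ libraries 1 to 5 at 22 °C and at 4.31, 3.29, 4.85, 2.56 and 3.74 at 6 °C. In DPP4- cells Wdr86 was at 55.4, 76.6, 81.9, 89.0 and 60.4 at 22 °C and at 97.9, 117, 189, 205 and 153 at 6 °C. All DPP4+ libraries at 6 °C were under 5 normalized counts, and neither pair of groups overlapped. Wdr86 fell by 4.30 on the log2 scale in DPP4+ cells and rose by 1.03 in DPP4- cells, a difference of -5.32 (SE 0.29, adjusted p = 2.12e-12). Cebpa, the transcription factor C/EBP alpha that drives fat cell formation (gene ID 12606, chr7:35119293-35121928), was at 1562, 1475, 1245, 1516 and 1297 in DPP4+ libraries 1 to 5 at 22 °C and at 589.9, 556, 515, 545 and 424 at 6 °C. In DPP4- cells Cebpa was at 469.9, 455, 491, 484 and 454 at 22 °C and at 589, 575, 655, 661 and 719 at 6 °C. On the deposited scaling the order of the populations turned over: DPP4+ cells had the higher level at 22 °C and the lower mean at 6 °C. The order at 6 °C depends on that scaling. Cebpa fell by 1.43 in DPP4+ cells and rose by 0.44 in DPP4- cells, a difference of -1.87 (SE 0.11, adjusted p = 1.46e-11), and both pairs of groups were apart. Car3, carbonic anhydrase 3, an abundant enzyme of fat cells (gene ID 12350, chr3:14863538-14872381), was at 634, 598, 484, 570.0 and 502 in DPP4+ libraries 1 to 5 at 22 °C and at 273, 237, 251, 270.3 and 146 at 6 °C. In DPP4- cells Car3 was at 48.6, 399, 257, 201 and 189 at 22 °C and at 405, 383, 776, 986 and 1053 at 6 °C. The DPP4+ groups were apart and the DPP4- groups overlapped, with library 1 lowest at 22 °C. The effects of -1.27 and 1.86 differed by -3.13 (SE 0.60, adjusted p = 5.96e-04).

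Arxes2, a gene known from fat cell differentiation whose reads may be shared with its near-identical copy Arxes1, went from 84.5 ± 13.3 to 30.3 ± 9.51 in DPP4+ cells and from 32.1 ± 10.4 to 64.0 ± 8.87 in DPP4- cells, with both pairs of groups apart and a difference of -2.52 (SE 0.32, adjusted p = 1.26e-06). Lgr6, a receptor for R-spondins of the Wnt pathway, fell in DPP4+ cells from 69.6 ± 10.6 to 17.2 ± 5.58. In DPP4- cells Lgr6 was nearly absent, at 1.35, 0, 0, 3.07 and 0 at 22 °C and at 6.70, 4.09, 4.05, 1.88 and 1.65 at 6 °C, so its rise there rests on very few reads, and its class did not hold under edgeR, DESeq2 or without the 4 libraries that stood apart. Kif23, a motor protein of cell division, was likewise under 15 normalized counts in every DPP4- library, and its class was kept in 3 of 20 fits without 1 library. Lypd1, a membrane-anchored protein of the Ly6 family, Cadm2, a cell adhesion molecule, and Mtss1, a regulator of actin at the membrane, had differences of -2.24 ± 0.35, -2.25 ± 0.43 and -1.70 ± 0.32 (± SE). The class of Cadm2 did not hold under edgeR. Among the genes taken from the pathway lists, Acvr2a, an activin receptor, went from 806 ± 64.7 to 433 ± 31.7 in DPP4+ cells and from 873 ± 45.8 to 1096 ± 99.2 in DPP4- cells, Fgf10, a growth factor of preadipocytes, from 413 ± 36.3 to 295 ± 41.2 in DPP4+ cells and from 633 ± 94.9 to 881 ± 109 in DPP4- cells, and Asns, asparagine synthetase, from 945 ± 83.1 to 682 ± 78.7 in DPP4+ cells and from 494 ± 48.7 to 652 ± 59.7 in DPP4- cells. Their differences were -1.22 ± 0.10, -0.97 ± 0.16 and -0.88 ± 0.12, and both pairs of groups were apart for each.

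**Figure D3:**
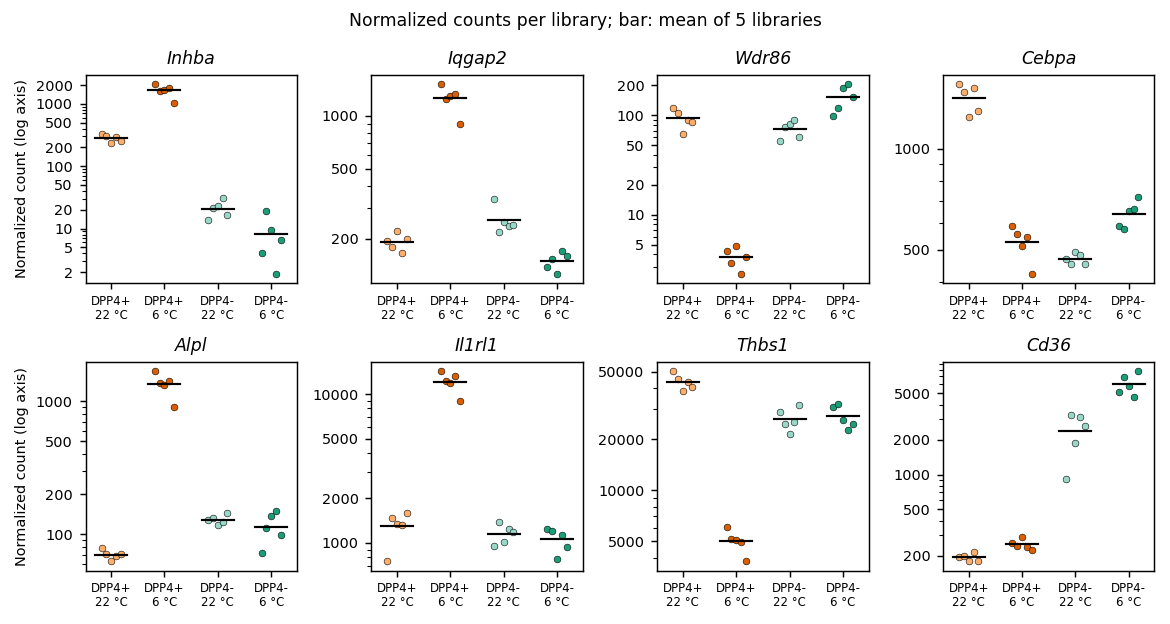
Normalized counts of 8 genes (vertical axis, log scale with its own range per gene) in each of the 20 libraries, grouped by population and temperature; points are libraries and bars the mean of 5. Inhba and Iqgap2 rose in DPP4+ and fell in DPP4- cells, Wdr86 and Cebpa did the reverse, Alpl and Il1rl1 rose and Thbs1 fell in DPP4+ cells only, and Cd36 passed the test in DPP4- cells only, with all cold libraries above those at 22 °C in both populations.

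The 1825 genes that rose only in DPP4+ cells included enzymes, receptors and transcription factors that both populations held at 22 °C. Alpl, tissue-nonspecific alkaline phosphatase (gene ID 11647, chr4:137741731-137796384), was at 79.0, 70.7, 63.0, 68.3 and 70.5 in DPP4+ libraries 1 to 5 at 22 °C and at 1677, 1369.5, 1318, 1424 and 909 at 6 °C. In DPP4- cells Alpl was at 128, 132, 117, 124 and 144 at 22 °C and at 72.4, 112, 138, 151 and 98.8 at 6 °C. The DPP4+ groups were apart and the DPP4- groups overlapped. Alpl rose by 4.21 in DPP4+ cells, its effect in DPP4- cells was -0.22 with a 95% interval of -0.54 to 0.11, and the difference was 4.43 (SE 0.22, adjusted p = 2.12e-12). Il1rl1, the IL-33 receptor ST2 (gene ID 17082, chr1:40404864-40465418), was at 754, 1463, 1348, 1316 and 1575 in DPP4+ libraries 1 to 5 at 22 °C and at 14220.5, 12191, 11913, 13161 and 8976 at 6 °C. In DPP4- cells Il1rl1 was at 959, 1389, 1011, 1231 and 1180.5 at 22 °C and at 1241, 1208, 783, 1137 and 932 at 6 °C. At 22 °C the populations overlapped, and at 6 °C every DPP4+ library was above every DPP4- library. The effects of 3.25 and -0.13 (95% interval -0.51 to 0.25) differed by 3.38 (SE 0.25, adjusted p = 6.97e-09). Il33, the ligand of that receptor, went from 1121 ± 159 to 5286 ± 665 in DPP4+ cells and from 1962 ± 478 to 2118 ± 679 in DPP4- cells, a difference of 2.15 (SE 0.28, adjusted p = 9.08e-06). Sox11, a transcription factor of progenitor cells (gene ID 20666, chr12:27334268-27342718), was at 18.03, 29.5, 18.8, 25.1 and 30.5 in DPP4+ libraries 1 to 5 at 22 °C and at 363, 293, 299, 324 and 191 at 6 °C. In DPP4- cells Sox11 was at 399.7, 469.9, 472, 436 and 503 at 22 °C and at 404, 408, 489, 565 and 381 at 6 °C. Cold thus brought Sox11 in DPP4+ cells towards the level that DPP4- cells had at both temperatures, and the difference was 3.57 (SE 0.22, adjusted p = 8.84e-11). The same pattern of a rise in DPP4+ cells and a DPP4- interval within 1.5-fold held for Tll1, a protease that processes matrix and BMP antagonists (3.90 ± 0.20), Slc16a6, a transporter of the monocarboxylate family (3.85 ± 0.26), and Ddit4, an inhibitor of the growth kinase mTORC1 (3.47 ± 0.24, each difference ± SE).

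Genes that fell only in DPP4+ cells numbered 1776. Thbs1, the matrix protein thrombospondin 1 (gene ID 21825, chr2:118111876-118127133), was at 50418, 45333, 38416, 43765 and 40949.7 in DPP4+ libraries 1 to 5 at 22 °C and at 6061, 5129, 5096, 4927 and 3817 at 6 °C. In DPP4- cells Thbs1 was at 29180.0, 24565, 21368, 25304 and 32046 at 22 °C and at 31218, 32180.5, 26150.3, 22638 and 24694 at 6 °C. DPP4+ cells held the higher level at 22 °C and the lower at 6 °C, without overlap at either temperature. Thbs1 fell by 3.14 on the log2 scale, its effect in DPP4- cells was 0.05 (95% interval -0.20 to 0.30), and the difference was -3.19 (SE 0.17, adjusted p = 2.12e-12). Gucy1b1, a subunit of the nitric oxide receptor guanylyl cyclase (gene ID 54195, chr3:82032004-82074711), was at 110.1, 117, 87.6, 110.2 and 98.9 in DPP4+ libraries 1 to 5 at 22 °C and at 6.04, 7.23, 6.80, 4.26 and 11.2 at 6 °C. In DPP4- cells Gucy1b1 was at 288, 353, 369, 313 and 246 at 22 °C and at 282, 307, 367, 335 and 428 at 6 °C. The DPP4+ groups did not overlap, and the effects of -3.75 and 0.13 differed by -3.88 (SE 0.23, adjusted p = 1.14e-11). Grb14, an adaptor that restrains insulin receptor signalling, went from 195 ± 21.8 to 10.7 ± 2.12 in DPP4+ cells and from 125 ± 19.1 to 119 ± 32.5 in DPP4- cells. Cyp7b1, an oxysterol hydroxylase, went from 1425 ± 185 to 109 ± 23.7 in DPP4+ cells and from 106 ± 27.4 to 109 ± 19.0 in DPP4- cells. On the deposited scaling the populations, far apart at 22 °C, thus had nearly equal means in the cold. Differences were -3.99 ± 0.23 for Grb14, -3.77 ± 0.24 for Cyp7b1, -4.27 ± 0.15 for Lbh, a transcriptional cofactor of progenitor cells, and -3.42 ± 0.23 for Ripor3.

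Of the 111 genes that were hardly present in DPP4- cells, 42 rose and 69 fell in DPP4+ cells. For these the difference of cold effects is a difference between a gene that was on in 1 population and one that was near 0 in the other. Ramp3, a co-receptor of the calcitonin receptor family, stayed between 0 and 4.50 in the DPP4- libraries, and Ren1, renin, between 0 and 5.45. Sptssb, a subunit of serine palmitoyltransferase, was at 0 in all 5 DPP4+ libraries at 22 °C and at 1422, 1206, 1284, 1408 and 880.3 at 6 °C, while the DPP4- libraries ranged from 0 to 6.30. The genes that fell included Adrb3, the beta-3 adrenergic receptor, Lmod1, an actin nucleator of smooth muscle, and Siglecg, a sialic acid receptor. In DPP4- cells Adrb3 was at 4.05, 7.51, 3.78, 9.21 and 2.57 at 22 °C and at 2.68, 4.09, 6.75, 13.2 and 14.8 at 6 °C, which overlapped, and Lmod1 at 6.92 ± 1.95 and 7.03 ± 5.14.

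Only 69 genes rose and 103 fell in DPP4- cells alone, and the rising ones named here included genes of lipid handling. Cd36, a receptor for fatty acid uptake (gene ID 12491, chr5:17781690-17888959), was at 194, 196, 179, 215 and 180.3 in DPP4+ libraries 1 to 5 at 22 °C and at 258, 243, 289, 237 and 222 at 6 °C. In DPP4- cells Cd36 was at 918, 3253, 1854, 3116 and 2632 at 22 °C and at 5182, 6887, 5758, 4645 and 7754 at 6 °C. The groups were apart in both populations, and library 1 was the lowest of the DPP4- libraries at 22 °C. Cd36 rose by 1.47 on the log2 scale in DPP4- cells and had an effect of 0.37 in DPP4+ cells (adjusted p = 0.251), a difference of -1.10 (SE 0.36, adjusted p = 0.0245). Phospho1, a phosphatase of phosphocholine and phosphoethanolamine (gene ID 237928, chr11:95824500-95832140), was at 22.4, 16.4, 16.6, 15.03 and 19.6 in DPP4+ libraries 1 to 5 at 22 °C and at 20.7, 26.3, 21.4, 20.5 and 20.9 at 6 °C. In DPP4- cells Phospho1 was at 17.6, 24.0, 12.6, 27.6 and 11.6 at 22 °C and at 42.9, 61.4, 59.4, 50.8 and 50.2 at 6 °C. The DPP4- groups were apart, the DPP4+ groups overlapped, and the difference was -1.24 (SE 0.29, adjusted p = 0.00203). Plin1, the lipid droplet coat protein perilipin 1, went from 342 ± 37.1 to 172 ± 41.2 in DPP4+ cells and from 35.8 ± 21.0 to 129.6 ± 73.0 in DPP4- cells, with both pairs of groups apart. Its effect of -1.02 in DPP4+ cells missed the threshold (adjusted p = 0.160), so its class rests on that. Plin1 kept the class in 5 of 20 fits without 1 library. The fit used 1 spread per gene for all 4 groups, so the spread of the DPP4- libraries entered the tests in DPP4+ cells. For Plin1 and Cd36 the class therefore does not show that DPP4+ cells stood still. Reep6, a protein that shapes the endoplasmic reticulum (ER), went from 23.7 ± 4.15 to 13.5 ± 4.14 in DPP4+ cells and from 138 ± 65.6 to 442 ± 141 in DPP4- cells. The class of Reep6 likewise does not show that DPP4+ cells stood still. Without the 4 libraries that stood apart, Plin1, Reep6 and Cd36 left the class.

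Stmn4, a stathmin that binds tubulin (gene ID 56471, chr14:66344210-66361680), was at 229, 206, 248, 146 and 168 in DPP4+ libraries 1 to 5 at 22 °C and at 163, 185, 192, 178 and 276 at 6 °C. In DPP4- cells Stmn4 was at 24.3, 10.5, 8.82, 10.7 and 12.9 at 22 °C and at 4.02, 1.36, 2.70, 3.76 and 3.29 at 6 °C. The DPP4- groups were apart at a low level, and in DPP4+ cells the means were 199 and 199. Stmn4 fell by 1.80 in DPP4- cells, a difference of 1.80 (SE 0.34, adjusted p = 2.12e-04). Tnfsf15, a cytokine of the TNF family, had an effect of -2.41 in DPP4- cells, where library 3 at 6 °C was at 81.0 and the others at 5.65 to 25.9. Nup210l, related to a nuclear pore protein, and Fgf14, an intracellular protein of the FGF family, had differences of 1.45 ± 0.32 and 1.33 ± 0.34 (± SE). The number of genes that responded only in DPP4- cells was 85 when libraries were weighted by their quality, and the calls of Tnfsf15, Nup210l and Fgf14 in this class did not hold under that weighting. All 3 also left the class under quantile normalization and DESeq2, and Tnfsf15 and Fgf14 under edgeR.

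In 68 genes the populations moved together but not equally. The larger effect was in DPP4+ cells for 24 rising and 39 falling genes and in DPP4- cells for 5 falling genes and for 0 rising ones. Avpr1a, the vasopressin receptor V1a (gene ID 54140, chr10:122448499-122453453), was at 835, 764, 695, 745 and 756 in DPP4+ libraries 1 to 5 at 22 °C and at 70.7, 76.9, 74.8, 74.2 and 71.8 at 6 °C. In DPP4- cells Avpr1a was at 527, 368, 393, 345 and 395 at 22 °C and at 194, 303, 262, 318 and 261 at 6 °C. Both pairs of groups were apart, and the falls of 3.35 and 0.60 on the log2 scale differed by -2.74 (SE 0.15, adjusted p = 3.35e-12). Ucp1, the uncoupling protein of heat-producing fat cells (gene ID 22227, chr8:83290348-83298456), was at 0, 1.31, 1.45, 0.626 and 0.727 in DPP4+ libraries 1 to 5 at 22 °C and at 81.1, 63.8, 45.6, 56.3 and 52.4 at 6 °C. In DPP4- cells Ucp1 was at 0, 0, 1.26, 0 and 0 at 22 °C and at 5.36, 8.18, 8.10, 5.65 and 23.0 at 6 °C. The groups were apart in both populations, with effects of 5.10 and 3.04 and a difference of 2.06 (SE 0.54, adjusted p = 0.00447). That difference was not called by edgeR (adjusted p = 0.766) or DESeq2 (0.391) on the whole reads. The 10 libraries at 22 °C held 0 to 1.45 normalized counts of Ucp1. Fn1, the matrix protein fibronectin, went from 222166 ± 23109.7 to 175970.0 ± 18222 in DPP4+ cells and from 49050.3 ± 4268 to 27821 ± 3745 in DPP4- cells, with overlap in DPP4+ cells and none in DPP4- cells. Its difference of 0.49 (SE 0.15, adjusted p = 0.0135) was not called after quantile normalization. Klf12, a transcription factor, and Cd109, a membrane-anchored TGF-beta co-receptor, also fell more in DPP4- cells, by 1.09 against 0.42 and by 0.80 against 0.30. Klf12 was not called without the 4 libraries that stood apart, and Cd109 was not called with totals set equal or after quantile normalization. Masp1, a protease of the complement lectin pathway, rose by 3.05 and 0.97. Its class was kept in 11 of 20 fits without 1 library. The class did not hold under edgeR, sample weights, other filters on low values or a fit without a variance trend, nor without the 4 libraries that stood apart.

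Gene lists for pathways of this tissue were then read against the background of 16.8% of all tested genes called above 0 and 16.4% below 0, with a median difference of 0.01. For the cold effects, 23.5% of all tested genes rose and 22.6% fell in DPP4+ cells, and 1.98% rose and 3.23% fell in DPP4- cells. The lists and their members were chosen, so these counts are descriptions with no test. Among adrenergic receptors and adenylyl cyclases, 4 of 14 tested members had a difference above 0 and 6 below 0 (median -0.15). Adra1d, an alpha-1 receptor, went from 231 ± 21.8 to 16.1 ± 3.33 in DPP4+ cells and from 24.4 ± 9.11 to 31.0 ± 12.4 in DPP4- cells, a difference of -4.11 (SE 0.32, adjusted p = 7.96e-10), and Adcy2, an adenylyl cyclase, from 242 ± 19.2 to 428 ± 50.7 in DPP4+ cells and from 119 ± 18.4 to 110.2 ± 34.4 in DPP4- cells, a difference of 0.97 ± 0.23. Of the target genes of cAMP and CREB, 10 of 20 tested members had a difference above 0 and 2 below 0 (median 0.38), and 10 rose in DPP4+ cells against 0 in DPP4- cells. The phosphodiesterases Pde4b and Pde4d, which break down cAMP, had different starting points. Pde4b went from 57.2 ± 3.93 to 303 ± 44.0 in DPP4+ cells and from 435 ± 62.4 to 455 ± 71.6 in DPP4- cells, so cold brought DPP4+ cells towards the DPP4- level. Pde4d went from 126 ± 21.5 to 2051 ± 443 in DPP4+ cells and from 146 ± 27.8 to 182 ± 36.3 in DPP4- cells. On the deposited scaling, cold thus set apart populations whose means began close. The differences of Pde4b and Pde4d were 2.32 ± 0.16 and 3.69 ± 0.23. Crem, a cAMP-induced transcription factor, differed by 3.31 ± 0.23.

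Of the cytokines and alarmins, 8 of 16 tested members had a difference above 0 and 2 below 0 (median 0.88). The 10 called genes all belonged to the class of DPP4+ cells only, which holds 83.2% of all called genes. Il11, a cytokine of the IL-6 family whose upstream stretch was shown, was at 19.3, 15.7, 25.3, 20.7 and 23.3 in DPP4+ libraries at 22 °C and 3569, 2988, 3041, 3345 and 1940.1 at 6 °C, with 25.7, 28.5, 18.9, 32.2 and 24.4 at 22 °C and 26.8, 16.4, 21.6, 13.2 and 9.05 at 6 °C in DPP4- cells. The DPP4+ groups were apart, the DPP4- groups overlapped, and the difference was 7.70 (SE 0.31, adjusted p = 4.41e-14). Without the 4 libraries that stood apart, Il11 left the class. Clcf1, another cytokine of that family, differed by 2.60 ± 0.27. Of the chemokines, 2 of 16 tested members had a difference above 0 and 1 below 0 (median 0.14), a share of 18.8% against 33.2% of all genes. Cxcl14 rose from 478 ± 30.4 to 3249 ± 628 in DPP4+ cells but stayed below the DPP4- level of 15657 ± 1225, and Cxcl12, which retains leukocytes and progenitors, fell only in DPP4+ cells (difference -1.28 ± 0.17). Cxcl5, a neutrophil attractant, differed by 2.11 ± 0.42. Ccl2, a monocyte attractant, had a difference of 0.28 ± 0.24 that did not pass (adjusted p = 0.396).

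Growth factor pathways had members in both directions. Of the TGF-beta, BMP and activin genes, 9 of 36 tested members had a difference above 0 and 8 below 0 (median 0.17), and 3 were of the opposite class, namely Inhba, Acvr2a and Bmpr1b. The ligand subunit Inhba and the receptor Acvr2a moved against each other in each population. Bambi, a decoy receptor, went from 98.3 ± 6.59 to 255 ± 35.9 in DPP4+ cells and from 96.3 ± 16.4 to 84.0 ± 9.13 in DPP4- cells, a difference of 1.55 (SE 0.16, adjusted p = 1.08e-07). Of the Wnt genes, 5 of 23 tested members had a difference above 0 and 8 below 0 (median 0.02). The ligand Wnt5a and the feedback inhibitors Nkd1 and Nkd2 fell in DPP4+ cells only, with differences of -0.92 ± 0.11, -1.81 ± 0.13 and -2.20 ± 0.21. Of the FGF, VEGF and PDGF genes, 5 of 23 tested members had a difference above 0 and 7 below 0 (median 0.15). Vegfd, a lymphatic growth factor, fell in both populations, from 6408 ± 533 to 1397 ± 98.9 in DPP4+ cells and from 789 ± 53.9 to 651 ± 64.8 in DPP4- cells, a difference of -1.91 (SE 0.10, adjusted p = 2.12e-12). Vegfa, a blood vessel growth factor, rose in both, by 1.35 and 0.38. The class of Vegfd was kept in 16 and that of Vegfa in 15 of 20 fits without 1 library. Neither class held under quantile normalization. That of Vegfd also did not hold with totals set equal, nor that of Vegfa in a fit without a variance trend. Pdgfra fell from 11512 ± 419 to 5287 ± 462 in DPP4+ cells and was at 9894 ± 641 and 10676 ± 1323 in DPP4- cells. Pdgfrb, on which the cells were sorted, went from 2942 ± 226 to 1505 ± 80.7 in DPP4+ cells and from 4126 ± 333 to 4124 ± 543 in DPP4- cells, with differences of -1.23 ± 0.11 and -0.96 ± 0.11.

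Of the mature adipocyte genes, 1 of 11 tested members had a difference above 0 and 7 below 0 (median -1.17). Their median cold effect was -0.43 in DPP4+ cells and 0.86 in DPP4- cells, with 1 rising and 2 falling in DPP4+ cells and 4 rising and 0 falling in DPP4- cells. Summed over the list, the level per library was 2087 to 2676 in DPP4+ cells at 22 °C and 1209 to 1927 at 6 °C, and 2510 to 4502 in DPP4- cells at 22 °C and 4160 to 5781 at 6 °C. Trarg1, a regulator of glucose transporter traffic, went from 19.3 ± 2.62 to 7.62 ± 3.40 in DPP4+ cells and from 98.3 ± 23.8 to 159.8 ± 19.1 in DPP4- cells, and Pnpla2, the lipase that starts triglyceride breakdown, from 495 ± 30.9 to 385 ± 23.8 in DPP4+ cells and from 273 ± 25.5 to 333 ± 55.3 in DPP4- cells, with differences of -2.05 ± 0.32 and -0.64 ± 0.13. In such sorted bulk samples fewer cells of a type and less RNA per cell cannot be told apart, and the part of attached fat cell RNA in these values was not tested. Of the adipogenic regulators, 2 of 19 tested members had a difference above 0 and 8 below 0 (median -0.37), and Cebpa had the lowest p of them. Rxra, a nuclear receptor partner of PPAR gamma, differed by -0.45 ± 0.08, and Sox9, a progenitor transcription factor, fell in both populations, by 1.43 and 0.41.

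Of the DPP4+ interstitial progenitor markers, 3 of 18 tested members had a difference above 0 and 0 below 0 (median 0.32). The share called, 16.7%, was below the 33.2% of all genes. In DPP4+ cells 3 members rose and 1 fell, and in DPP4- cells 1 rose and 3 fell. Besides the genes that follow, the called member was Fn1, which fell in both populations. Cd55, a complement regulator, went from 4838 ± 851 to 9489 ± 901 in DPP4+ cells and from 812 ± 49.4 to 643 ± 131 in DPP4- cells, and Sema3c, a secreted semaphorin, from 6642 ± 684 to 8735 ± 1853 in DPP4+ cells and from 1139.8 ± 89.5 to 882 ± 147 in DPP4- cells, so that each was further apart between the populations in the cold, by 1.34 ± 0.18 and 0.76 ± 0.17. Of the committed preadipocyte markers, 4 of 17 tested members had a difference above 0 and 7 below 0 (median -0.08). Ggt5, a glutathione-cleaving enzyme, fell in DPP4+ cells only (-1.14 ± 0.11), while Col4a1, a basement membrane collagen, rose there from 11009 ± 523 to 18082 ± 1302 and was at 172400.0 ± 18898 and 144835 ± 11951 in DPP4- cells. Of the CD142+ progenitor markers, 1 of 11 tested members had a difference above 0 and 5 below 0 (median -0.57). F3, tissue factor (CD142) itself, went from 2173 ± 180.4 to 531 ± 26.9 in DPP4+ cells and from 2712 ± 305 to 2834 ± 402 in DPP4- cells, a difference of -2.09 (SE 0.12, adjusted p = 6.16e-12), and Cygb, cytoglobin, differed by -0.89 ± 0.13.

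Of the collagens, 4 of 24 tested members had a difference above 0 and 2 below 0 (median 0.13), while 11 fell in DPP4+ and 10 in DPP4- cells, with median effects of -0.27 and -0.38. Of all tested genes, 22.6% fell in DPP4+ and 3.23% in DPP4- cells. The share of collagens called for the difference, 25.0%, was below the 33.2% of all genes. Col4a1 and Col4a2, paired chains of basement membrane, were above 0 with differences of 0.96 ± 0.12 and 0.66 ± 0.12, and Col8a2, a chain of collagen VIII, was below 0 with -2.01 ± 0.31. Of the matrix proteases and their inhibitors, 7 of 23 tested members had a difference above 0 and 6 below 0 (median 0.20). Adamts9 rose and Adamts15, another protease that cleaves proteoglycans, fell in DPP4+ cells only, with differences of 2.70 ± 0.27 and -2.19 ± 0.17. Adam19, a membrane-bound protease, differed by -1.06 ± 0.11. Smooth muscle contractile genes had a median effect of -0.88 in DPP4+ cells and -0.14 in DPP4- cells, and 2 of 14 tested members had a difference above 0 and 4 below 0 (median -0.70). Tpm1, a tropomyosin, and Synpo2, an actin-bundling protein, moved in opposing directions within DPP4+ cells, with differences of -1.02 ± 0.11 and 1.49 ± 0.19.

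The protein folding machinery of the ER had members that rose in both populations. Of its 20 tested genes 18 rose in DPP4+ and 8 in DPP4- cells, and 11 of 20 tested members had a difference above 0 and 0 below 0 (median 0.29). Hyou1, an ER chaperone, was at 1799.6, 1786, 1738, 1733 and 1722 in DPP4+ libraries at 22 °C and 4447, 3379, 3942, 4078 and 3479 at 6 °C, with 1330.1, 1330.1, 1310.0, 1328 and 1427 at 22 °C and 2103, 1534, 1867, 1828 and 1765 at 6 °C in DPP4- cells. Both pairs of groups were apart, and the rises of 1.13 and 0.43 differed by 0.70 (SE 0.10, adjusted p = 1.25e-05). Hspa5, the chaperone BiP, rose by 0.98 and 0.29, but kept this class in 7 of 20 fits without 1 library and not under sample weights or without the 4 libraries that stood apart. Edem1, which sends misfolded proteins to degradation, differed by 0.45 ± 0.08. Genes of ribosome biogenesis rose in DPP4+ cells in 27 of 28 and in DPP4- cells in 1, and 18 of 28 tested members had a difference above 0 and 0 below 0 (median 0.38). Bop1, Nop2 and Dkc1, which process or modify ribosomal RNA, differed by 0.59 ± 0.10, 0.65 ± 0.12 and 0.61 ± 0.11. With totals set equal the counts above 0 were 7 for ribosome biogenesis (median 0.24) and 6 for ER folding (median 0.15), beside the median of all genes of -0.13 under that scaling. Of the nuclear genes of oxidative phosphorylation, 5 of 43 tested members had a difference above 0 and 0 below 0 (median 0.08), a share of 11.6%, and with totals set equal 1 was above 0 and 1 below 0. Cycs, cytochrome c, differed by 0.80 ± 0.14, and the differences of Atp5b (0.33 ± 0.09) and Cox5a (0.37 ± 0.12) were not called with totals set equal.

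Of the cholesterol genes, 9 of 21 tested members had a difference above 0 and 2 below 0 (median 0.34). Insig1, which restrains cholesterol synthesis, had a difference of 0.67 (SE 0.13, adjusted p = 2.92e-04). Of the glycolysis and hypoxia genes, 11 of 22 tested members had a difference above 0 and 1 below 0 (median 0.28). Slc16a3, a lactate exporter, went from 74.8 ± 5.17 to 614 ± 133 in DPP4+ cells and from 26.2 ± 5.97 to 22.4 ± 8.13 in DPP4- cells, a difference of 3.27 (SE 0.33, adjusted p = 7.95e-08), and Egln3, an oxygen-sensing hydroxylase, rose from 9.54 ± 2.53 to 121 ± 19.5 in DPP4+ cells and was under 7 normalized counts in DPP4- libraries. Of the ATF4 and amino acid response genes, 3 of 21 tested members had a difference above 0 and 10 below 0 (median -0.32), so most called members went the other way from the cystine transporter Slc7a11, whose difference was 5.90 ± 0.69. Asns, described among the opposite genes, was one of these. Of the cell cycle genes, 1 of 35 tested members had a difference above 0 and 16 below 0 (median -0.72), and 18 fell in DPP4+ cells against 0 in DPP4- cells, where 1 rose. Ccnb2, a mitotic cyclin, went from 211 ± 21.8 to 87.5 ± 11.8 in DPP4+ cells and from 21.4 ± 4.09 to 21.3 ± 5.49 in DPP4- cells, and the replication helicase genes Mcm6 and Mcm7 differed by -0.72 ± 0.13 and -0.67 ± 0.12.

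Of the circadian clock genes, 3 of 18 tested members had a difference above 0 and 3 below 0 (median 0.03). All of these belonged to the class of DPP4+ cells only, which holds 83.2% of all called genes. Arntl, the clock activator BMAL1, went from 526 ± 54.6 to 1013 ± 74.1 in DPP4+ cells and from 836 ± 71.5 to 717 ± 102 in DPP4- cells, and Per3 and Dbp, which are known to cycle against it, fell in DPP4+ cells, with differences of 1.18 ± 0.12, -1.50 ± 0.19 and -1.71 ± 0.30. Of the glucocorticoid targets, 2 of 17 tested members had a difference above 0 and 1 below 0 (median 0.10). Ddit4 had the largest difference of these, Errfi1, a feedback inhibitor of the EGF receptor, differed by 0.49 ± 0.13, and the difference of Angptl4, an inhibitor of lipoprotein lipase (-0.49 ± 0.18, adjusted p = 0.0448), kept its call in 7 of the 20 fits without 1 library. Of the immediate early genes, which are also raised by tissue dissociation, 5 of 27 tested members had a difference above 0 and 1 below 0 (median 0.11). Hsph1, a heat shock protein, and Ier3 differed by 1.88 ± 0.25 and 1.196 ± 0.19, and Fosl1 by 0.42 ± 0.12, which was not called with totals set equal or after quantile normalization. Of the interferon-stimulated genes, 2 of 30 tested members had a difference above 0 and 5 below 0 (median -0.15). Ifit2 had a difference of -0.87 (SE 0.24, adjusted p = 0.00846) and Oasl1 one of 1.12 (SE 0.27, adjusted p = 0.00249). With totals set equal, 2 immediate early genes were above 0 and 8 interferon-stimulated genes below 0, and 0 adipogenic regulators were above 0. The sign of the median difference of the Wnt, clock, collagen, chemokine, glucocorticoid, immediate early and oxidative phosphorylation lists depended on the scaling of the libraries or on the 4 libraries that stood apart, so no direction is drawn from it.

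**Figure D4:**
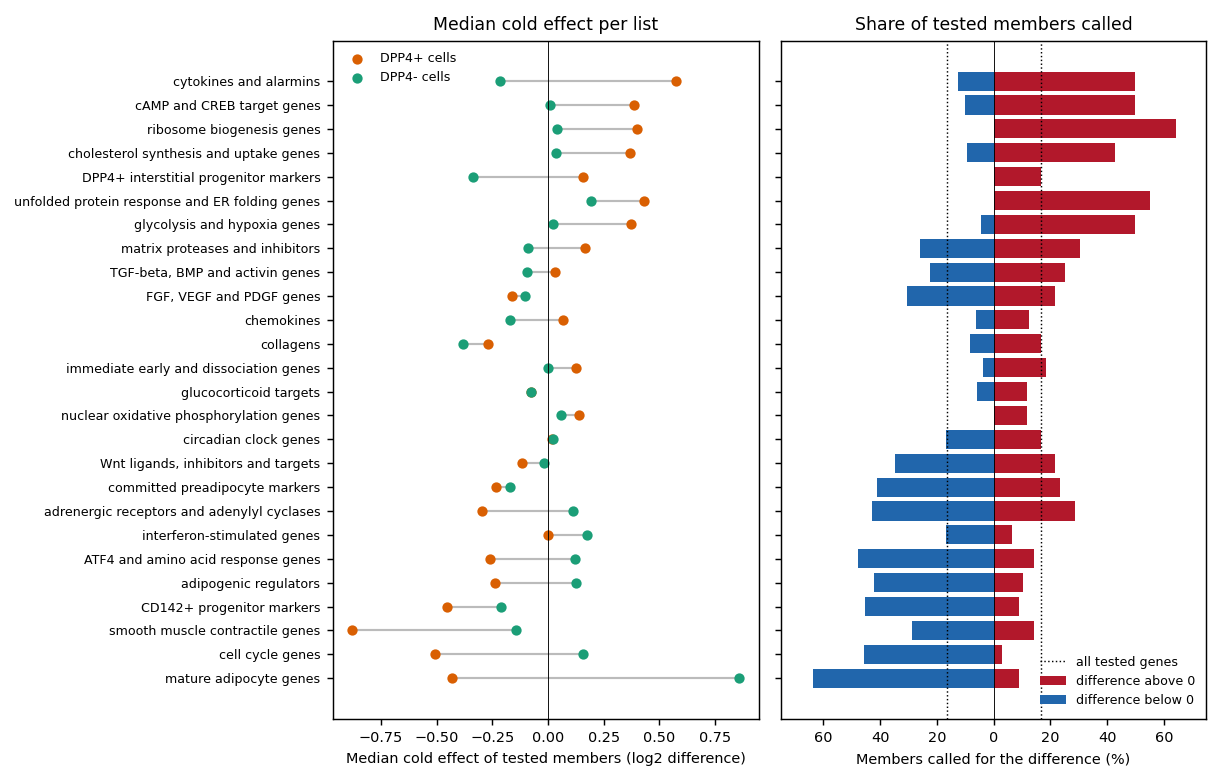
Left, the median cold effect (log2 difference) of the tested members of each of 26 lists in DPP4+ and DPP4- cells; right, the share of tested members called for the difference of cold effects above 0 and below 0, with dotted lines at the 16.8% and 16.4% of all tested genes. The populations are furthest apart for mature adipocyte genes (-0.43 against 0.86), and the ribosome biogenesis bar falls to 7 of 28 genes with totals set equal. The sign of the median difference of the Wnt, clock, collagen, chemokine, glucocorticoid, immediate early and oxidative phosphorylation lists depends on the scaling.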

How the data were processed

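RNA-seq had been done on 20 libraries, 5 in each of 4 groups, grouped by the labels' population and temperature. Per the submitters' processing notes the authors used featureCounts 1.4.6, HISAT2 2.0.1, DESeq2 1.6.3 and Trim Galore 0.4.1, and the builds named are mm10 and GRCm38. Per the labels' protocols total RNA was used with a NEBNext Ultra II kit. The annotation and the strand setting are not given in the sources used here, so reads of overlapping or antisense genes may be mixed. Normalized counts are the deposited signal, for which the authors divided each library's gene counts by 1 factor. All values (100%) were whole multiples of 1 step per library (tolerance 0.1 read, largest distance 0.00053), so the whole reads could be recovered. Deposited totals lay between 10.2 and 12.1 M (DPP4+) and between 15.4 and 17.3 M (DPP4-). Levels compared between the populations depend on this scaling.

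Of 27179 genes, 958 lacked a symbol and took between 0.0610 and 0.0824% of a library's reads. Symbols turned into dates (26) were restored by gene ID from a RefSeq table (GRCm38.p6), in which 25275 IDs were found and which gave the coordinates. Genes with a mean of at least 10 were tested on log2(value + 1), a scale that understates changes of low genes, with limma 3.58.1 in R 4.3.3 (a mean for each of 4 groups, 16 residual degrees of freedom, robust moderation of the variance with a trend, two-sided). P-values were adjusted by Benjamini-Hochberg over 13057 genes for each of 3 contrasts, with a threshold of 0.05. Log2 differences are fitted values and errors are SD over 5 libraries or SE of the fit.

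Classes follow the 3 contrasts: opposite (both cold effects pass, signs differ), 1 population only, same direction, or neither. Named genes needed an established symbol, a group mean of at least 50 and a called difference. They were the 8 opposite genes of each direction whose smaller effect was largest, the 6 largest differences of each direction in DPP4+ cells only (interval within 1.5-fold and level of at least 10 in DPP4- cells), the 3 largest of each direction not expressed in DPP4- cells, the 4 of each direction in DPP4- cells only, the 3 of the same direction for each population, for each list the 3 members of lowest p, and Dpp4, Pdgfra, Pdgfrb, Il33 and Ccl2. The members, lists, rules and alternatives were chosen with earlier results of these data known. Some genes that the rule chose are not reported here. The procedure was tested on simulated data. Alternatives included other pseudocounts, filters and scalings, edgeR 4.0.16 and DESeq2 1.42.0 on the whole reads, sample weights, and leaving out each library. The 4 libraries that stood apart were left out together, a choice made after seeing the data. All 20 libraries were used in the tests reported first.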

Additional observations from a re-analysis of the deposited data

Results flagged for a closer look

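The test of the difference itself marked 4329 genes whose cold effect differed between the populations, of which 131 moved in opposite directions.

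Single values far from the other 4 libraries of their group were found in 40 of 496 groups of 5 values, where chance gives about 5%. They are given as the value in normalized counts against the range of the other 4 libraries. In DPP4+ cells at 6 °C, library 5 was apart for Efnb2 (731 against 1080.4 to 1221), Car3 (146 against 237 to 273), Slc16a6 (375 against 589 to 675), Stmn4 (276 against 163 to 192), Clcf1 (105 against 162 to 179.9), Cxcl5 (544 against 806 to 879.7), Cygb (1359 against 847 to 868), Fgf10 (224 against 295 to 323) and sum of macrophage markers (182 against 245 to 270.0). In DPP4- cells at 22 °C, library 1 was apart for Iqgap2 (338 against 219 to 251), Lypd1 (23.0 against 59.2 to 70.6), Stmn4 (24.3 against 8.82 to 12.9), Avpr1a (527 against 345 to 395), Pde4b (544 against 386 to 421), Fgf10 (467 against 648 to 706), Trarg1 (58.1 against 100.3 to 117) and Dpp4 (105 against 52.2 to 67.6). These libraries held 9 and 8 of the 40 values. In DPP4+ cells at 22 °C, library 1 was apart for Pnpla2 (550.3 against 478 to 487), Il33 (842 against 1149 to 1231) and sum of granulocyte and mast cell markers (18.7 against 22.5 to 24.0), library 2 for Adamtsl2 (32.1 against 16.7 to 18.8), library 3 for Cxcl14 (425 against 486 to 502) and library 5 for Bambi (109.8 against 93.0 to 96.4). The other values in DPP4+ cells at 6 °C were those of library 1 for Wnt5a (249 against 307 to 325) and library 2 for Phospho1 (26.3 against 20.5 to 21.4).

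In DPP4- cells at 22 °C, library 2 was apart for Ren1 (1.501 against 0 to 0), library 3 for Ucp1 (1.26 against 0 to 0), Klf12 (233 against 192 to 204) and sum of granulocyte and mast cell markers (494 against 33.8 to 148) and library 5 for Hyou1 (1427 against 1310.0 to 1330.1), Hspa5 (26748 against 23425 to 24338) and Ccl2 (12607 against 8986 to 10031). In DPP4- cells at 6 °C, library 2 was apart for Ren1 (5.45 against 0 to 1.34), Mcm6 (248 against 184 to 197) and sum of granulocyte and mast cell markers (2586 against 23.9 to 192). Library 1 of that group was apart for Dpp4 (137 against 37.8 to 47.1), library 3 for Tnfsf15 (81.0 against 5.65 to 25.9), library 4 for Klf12 (147 against 81.8 to 90.4) and library 5 for Ucp1 (23.0 against 5.36 to 8.18) and sum of endothelial markers (947 against 1360.5 to 1522).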

How the results depend on the processing

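The counts of genes with a difference above 0 ranged from 1960 to 2320 and below 0 from 1845 to 2276 when each library was left out in turn. Over the same fits the cold calls ranged from 5443 to 6191 in DPP4+ and from 480 to 938 in DPP4- cells, the genes of DPP4+ cells only from 3171 to 3728, of DPP4- cells only from 133 to 210, of opposite direction from 84 to 183 and of the same direction from 46 to 114. With totals set equal, 1128 genes were above 0, 222 were opposite, 294 were of DPP4- cells only and 1142 had a cold effect in DPP4- cells; 3265 of the 4188 called genes were among the 4329. Opposite genes numbered 86 after quantile normalization, 255 without the 4 libraries that stood apart and 623 with an unadjusted p in each population, which also gave 336 genes of DPP4- cells only and 213 of the same direction. Sample weights left 85 genes of DPP4- cells only and 434 cold calls in DPP4- cells, and without the filter on low values 44 genes had the same direction. The causes of these moves were not tested. edgeR called 4326 genes (4185 shared) and DESeq2 4517 (4223 shared).

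No named gene reversed its direction. Ren1 was not called by edgeR (adjusted p = 0.0899), and Dpp4 was called without DPP4- library 1 at 6 °C (0.84, adjusted p = 0.0122). A replicate block for equal numbers at the same temperature left 2192 genes above 0 and 2125 below 0 and could not be fitted for the cold effects, which lie between the blocks. Deviations of equal-numbered libraries correlated at 0.0166 to 0.156, above 0.1 in 4 of 10 pairs, and a library correlated best with its own number in 2 of 5 cases at 22 °C and 4 of 5 at 6 °C. Unlike numbers correlated at -0.156 to 0.0508. The labels name no shared animal and not every equal-numbered pair was above 0.1, so the numbers were not taken to pair the samples, which leaves pairing unsettled. Depth limits genes with few reads in 1 population, such as Lgr6, Kif23 and Stmn4.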
